A study of Schizosaccharomyces pombe with 4 samples.

Results

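The genes described here lie 50 to 100 kb inside the ends of chromosomes I and II of the fission yeast Schizosaccharomyces pombe. They are the features of type mRNA whose end nearest to the chromosome end falls in that range. The rule, which was set with earlier results of these data known, left out shu1, str3, pho1, pho84 and all names beginning ght, pfl, mug, meu or Tf2, which removed 8 features of the range. The remaining 55 genes are members of a total of 5144 features of type mRNA and 7015 features of all types. Of them, 11 lie on the left arm of chromosome I, 16 on its right arm, 16 on the left arm of chromosome II and 12 on its right arm. By name, 54 of the 55 were found in the RefSeq annotation of assembly ASM294v3, and all 54 had the same 3' end there as in the files.

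Chromosome ends of fission yeast carry heterochromatin, in which the enzyme Clr4 methylates lysine 9 of histone H3 and the HP1-type protein Swi6 binds that mark. Further inside lies subtelomeric chromatin that is poorly transcribed and poor in many histone marks, and that forms condensed bodies called knobs in the nucleus, which depend on the shugoshin Sgo2 and the methyltransferase Set2. Genes there often serve transport, use of unusual nutrients and stress defence, and many are little expressed in rich medium. The cleavage and polyadenylation factor (CPF), to which Swd22 (an adaptor subunit) and the phosphatase Ssu72 belong, cuts nascent transcripts and forms their 3' ends.

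Total RNA was sequenced from 4 cultures kept in log phase in the rich medium YEA at 18 °C, after 3 days at that temperature. By their labels, 1 culture was wild type and the others lacked swd22, ssu72 or clr4. All 4 shared medium, temperature and growth phase, and further alleles of the strains, or whether each was 1 clone, were not given in the sources used here. There was 1 library per genotype, so no difference below has a replicate check and no test of a genotype was possible. The title of the series asks about CPF in heterochromatin assembly.

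The libraries held 15282707 to 24005926 reads over the features, recovered from deposited ratios to an unnamed reference library of unknown strain and growth. Each deleted gene was compared between its own library and that labelled wild type: ssu72 had 16 against 478 reads and swd22 had 281 against 687, while the clr4 feature had 1645 against 1158, so the clr4 label was not checked by a loss of reads. The library labelled wild type stood apart from the other 4: it held 200 reads of swi6, the gene of the HP1-type protein, against 3601 to 4431 elsewhere, and 6 reads of the marker gene ura4. Libraries are therefore named by their labels throughout, and the unnamed reference is given as a further control. Calls are against the library labelled wild type unless the reference is named.

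Below, a difference is a log2 ratio of reads on the scale of the deposited ratios, so that 1 stands for 2-fold, and parentheses hold 95% Clopper-Pearson intervals that cover counting error only. A gene counted as measured in a comparison where the higher library held at least 10 reads. Levels are reads per kb of feature width, scaled to 1000000 reads of the library. Reads are listed in the order of the libraries labelled wild type, swd22 deletion, ssu72 deletion and clr4 deletion, followed by the unnamed reference.

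In all 3 deletion-labelled libraries the genes of this region lay mostly above the library labelled wild type. In the swd22-labelled library 26 of 49 measured members were at least 2-fold higher and 1 was lower, with a median difference of 1.06. Over all mRNA features of the same comparison, 6.48% were higher and 1.72% lower, around a median of 0.03. The ssu72-labelled library had 21 of 48 members higher and 1 lower with a median of 0.91, against 6.1% higher and 2.87% lower and a median of -0.02 over all mRNA features. The clr4-labelled library had 19 of 50 members higher and 2 lower with a median of 0.61, against 5.38% higher and 1.23% lower and a median of -0.03. These 3 comparisons share the library labelled wild type. That library held the lowest level among the 4 labelled ones for 30 of 50 members, compared with 34.1% of all mRNA features, and how far its own low levels of these genes set the counts was not tested.

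With the unnamed reference in place of the library labelled wild type, the members again lay mostly higher. The counts were 27 of 48 higher and 3 lower in the swd22-labelled library (8.89% and 2.34% over all mRNA features), 25 of 47 and 3 in the ssu72-labelled one (8.39% and 2.4%), and 27 of 50 and 6 in the clr4-labelled one (8.11% and 1.74%). Their medians were 1.13, 1.28 and 1.25. The library labelled wild type itself lay above the reference for 18 of 47 members and below it for 7 (5.43% and 2.86% over all mRNA features), with a median of 0.49. Members thus differed from the reference in the library labelled wild type as well, and the genotype and growth of the reference cannot be told apart in these differences.

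As a whole the region was low but not silent. The median level of the 55 members was 7.28 in the library labelled wild type, 13.9 in the swd22-labelled, 12 in the ssu72-labelled and 12.5 in the clr4-labelled library, and 4.03 in the reference. Over all mRNA features the medians ran from 41.4 to 45.5. The members together took 0.292%, 0.478%, 0.544%, 0.498% and 0.193% of the reads of these libraries. Their share was lowest in the reference and, among labelled libraries, in that labelled wild type. Between the lowest and the highest labelled library a member spanned a median of 1.54 on the log2 scale, with 38 of 50 at 2-fold or more, and for all mRNA features the median span was 0.42, with 664 of 5052 at 2-fold or more.

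**Figure D1:**
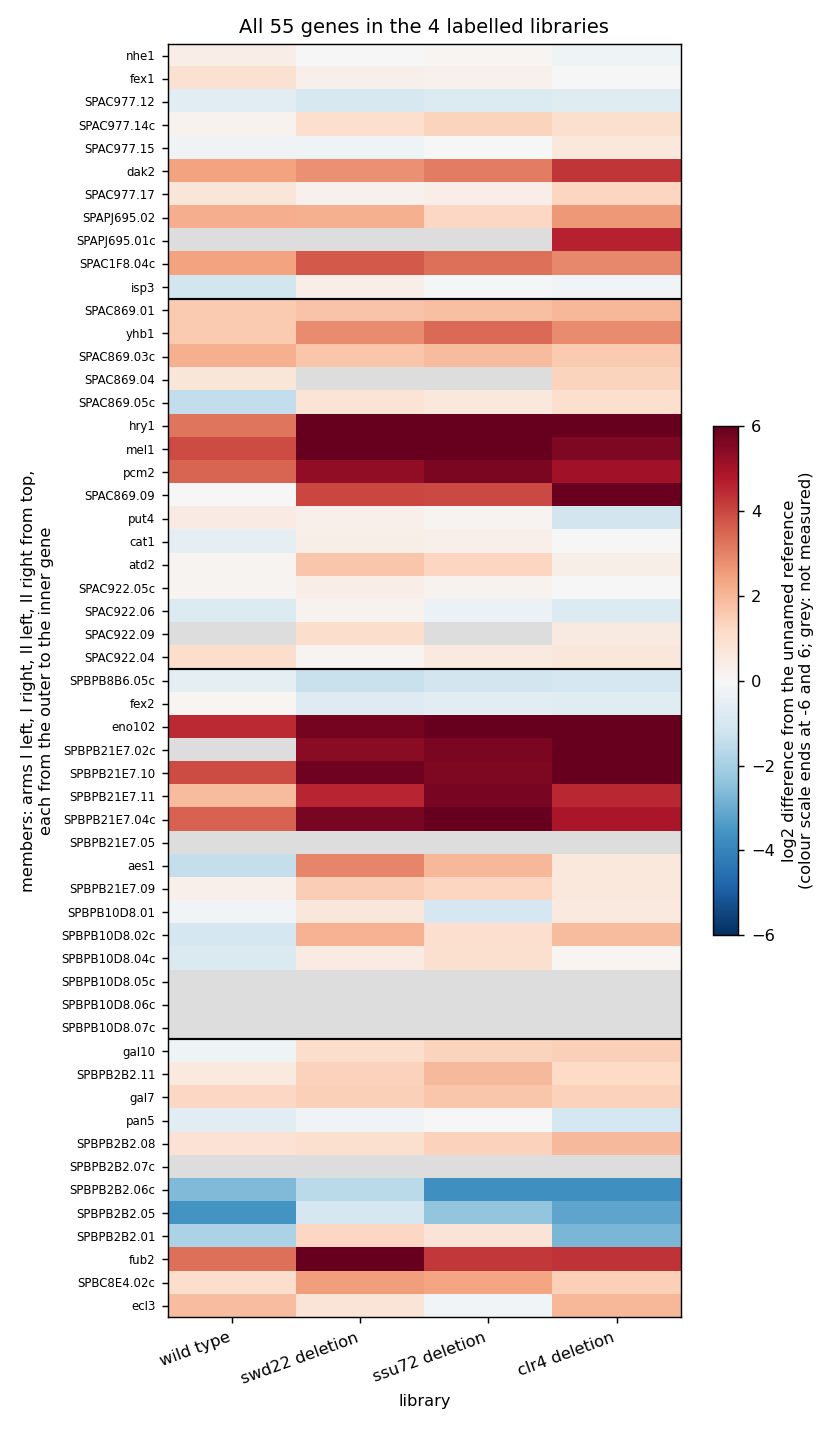
Colour gives the log2 difference of each of the 55 genes (rows, ordered by arm and from the outer to the inner gene) from the unnamed reference in the 4 labelled libraries (columns), with grey for genes not measured. Among the darkest red rows are hry1, mel1 and pcm2 on the right arm of I, eno102 to SPBPB21E7.04c on the left arm of II and fub2 on its right arm, and SPBPB2B2.05 and SPBPB2B2.06c are blue in all 4 libraries.

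The window closer to the ends had other counts. Within 50 kb, 1 of 31 measured genes was at least 2-fold higher and 17 were lower in the swd22-labelled library than in the library labelled wild type, with a median of -1.36. In the ssu72-labelled library 2 of 32 were higher and 23 lower (median -1.73), and in the clr4-labelled library 10 of 33 were higher and 13 lower (median -0.09). For these outer genes the library labelled wild type was itself high: 25 of 31 lay at least 2-fold above the reference and 0 below, with a median of 3.85. Against the reference, outer genes had medians of 1.59, 1.55 and 3.57 in the swd22-, ssu72- and clr4-labelled libraries, so their lower values held against the library labelled wild type and not against the reference. Further inside, 100 to 150 kb from the ends, 19, 14 and 10 of 65 genes were higher in the swd22-, ssu72- and clr4-labelled libraries and 1, 2 and 2 were lower, with medians of 0.43, 0.12 and 0.13. With 1 library per genotype the differences between these windows were not tested.

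**Figure D2:**
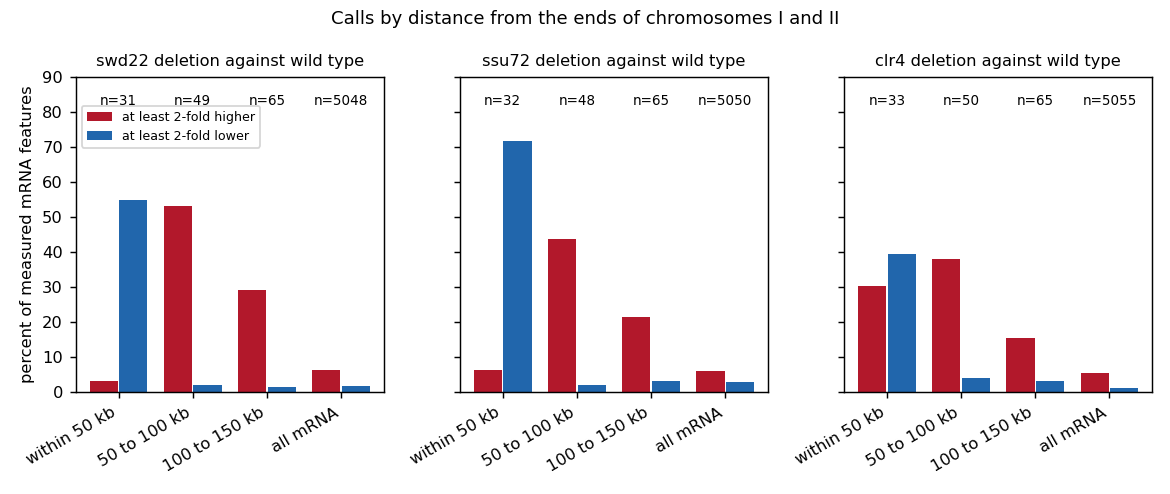
Bars give the percentage of measured mRNA features that were at least 2-fold higher (red) or lower (blue) than in the library labelled wild type, by distance from the ends of chromosomes I and II and over all mRNA features, with the number measured above. In the 50 to 100 kb window the higher share was 53.1%, 43.8% and 38% and the lower share 2.04%, 2.08% and 4% in the swd22-, ssu72- and clr4-labelled libraries, and in the outer window the lower bar is the taller one.

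The arms differed in their counts against the library labelled wild type. Over all mRNA features 6.48%, 6.1% and 5.38% were higher in the swd22-, ssu72- and clr4-labelled libraries, and 8.89%, 8.39% and 8.11% against the reference. On the left arm of chromosome II, 9, 8 and 7 of 12 measured members were at least 2-fold higher in the swd22-, ssu72- and clr4-labelled libraries than in that labelled wild type, and on the right arm of chromosome I the counts were 9 of 16, 7 of 15 and 7 of 16. The right arm of chromosome II had 6, 5 and 3 of 11. On the left arm of chromosome I they were 2 of 10, 1 of 10 and 2 of 11, with medians of -0.04, 0.04 and 0.60. These counts were the nearest to the shares over all mRNA features. At least 2-fold lower were 1 of 11 on the right arm of II in each library and 1 of 16 on the right arm of I in the clr4-labelled one. The counts were closer against the reference. There the left arm of I had 4 of 10, 4 of 10 and 5 of 11 members higher, its right arm 9 of 15, 8 of 14 and 9 of 16, the left arm of II 8, 7 and 6 of 12, and its right arm 6, 6 and 7 of 11. Lower against the reference were 0, 0 and 0 members on the left arm of I and 0, 0 and 1 on its right arm. On the left arm of II 1, 1 and 1 were lower, and on its right arm 2, 2 and 4. By distance, the step from 70 to 80 kb held the highest shares against the library labelled wild type, with 8 of 9, 7 of 9 and 6 of 10 members higher and medians of 2.56, 2.18 and 1.63. Against the reference that step had 7 of 9, 6 of 9 and 6 of 10 higher, and the step from 60 to 70 kb had 6 of 10, 7 of 10 and 9 of 11, so in the ssu72- and clr4-labelled libraries the order of these steps turned with the control. There was no steady trend from the outer to the inner limit: across members of the swd22 comparison Spearman's rho of difference and distance was 0.262 over 49 genes, for ssu72 it was 0.036 over 48 and for clr4 0.029 over 50, and neighbouring genes and the shared libraries make these points dependent.

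**Figure D3:**
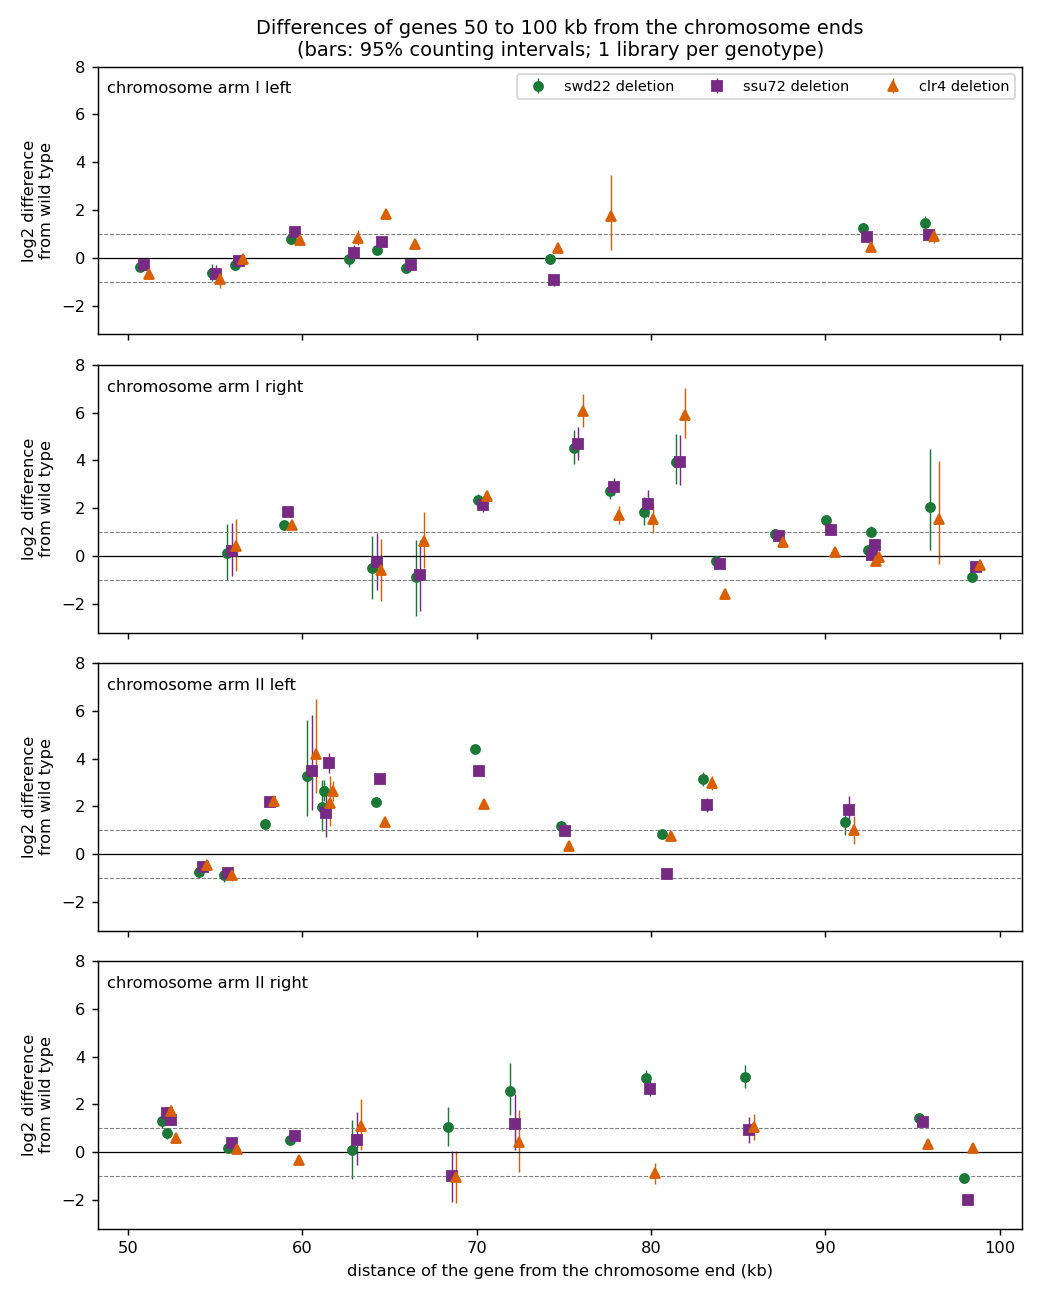
Each point is the log2 difference of a measured member from the library labelled wild type, plotted by distance from the chromosome end (kb) for the 4 arms, with bars for 95% counting intervals and dashed lines at 2-fold. Most points of the left arm of I lie between the dashed lines, and the highest points are hry1 and SPAC869.09 on the right arm of I, where the clr4-labelled library reached 6.05 and 5.89.

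A run of 5 neighbouring genes on the right arm of chromosome I held the highest difference of each comparison with the library labelled wild type, that of hry1. It comprised SPAC869.09, pcm2, mel1, hry1 and SPAC869.05c, which span 11.94 kb (5496844 to 5508782). All 5 were at least 2-fold higher in each deletion-labelled library than in that labelled wild type. The gene hry1 (5502560 to 5503291), predicted to encode a cation-binding protein with an HHE domain, held 19, 560, 758 and 1879 reads in the labelled libraries and 3 in the reference. It was lowest in the reference, next lowest in the library labelled wild type and highest in the clr4-labelled one. From the library labelled wild type the swd22-labelled one differed by 4.52 (3.86 to 5.26), or 22.9-fold, the ssu72-labelled one by 4.67 (4.01 to 5.41), or 25.4-fold, and the clr4-labelled one by 6.05 (5.40 to 6.78), or 66.2-fold. From the reference, the library labelled wild type itself differed by 3.23 (1.47 to 5.63) and the clr4-labelled one by 9.28 (7.73 to 11.56).

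The upstream sequence of hry1 is shown because of a long repeat in it. In the 200 bases that end 50 bases before the RefSeq gene start, a stretch of 30 bases occurs in tandem, at positions 130 and 160 counted from the 5' end of the window. Of 5112 genes with such a window, hry1 alone, or 0.0196%, held a repeated stretch that long. Capitals mark both copies (RefSeq, ASM294v3, chrI:5502325-5502524, plus strand).
hry1: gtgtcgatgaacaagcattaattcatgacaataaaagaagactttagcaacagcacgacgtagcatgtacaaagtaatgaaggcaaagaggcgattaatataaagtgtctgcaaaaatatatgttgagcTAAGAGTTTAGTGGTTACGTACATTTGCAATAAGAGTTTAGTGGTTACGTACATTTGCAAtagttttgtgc

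Beside hry1 lies mel1 (5499768 to 5501236), the gene of a melibiase, an alpha-galactosidase that frees galactose from melibiose. It held 71, 603, 834 and 346 reads, and 7 in the reference. Here the swd22- and ssu72-labelled libraries stood above the clr4-labelled library, and all labelled libraries stood above the reference. The differences from the library labelled wild type were 2.72 (2.37 to 3.10), 2.90 (2.55 to 3.27) and 1.71 (1.33 to 2.09), and that library lay above the reference by 3.91 (2.80 to 5.28). The mel1 upstream window is printed as an example of a member window with GATAAG, in capitals, the letters found more often among the members than among all genes (RefSeq, ASM294v3, chrI:5499532-5499731, plus strand).
mel1: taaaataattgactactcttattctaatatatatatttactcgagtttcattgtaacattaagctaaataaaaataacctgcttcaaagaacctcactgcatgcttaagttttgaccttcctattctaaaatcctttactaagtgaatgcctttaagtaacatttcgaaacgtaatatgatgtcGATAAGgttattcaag

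The other genes of this run were higher as well. SPAC869.09 (5496844 to 5497448), which encodes a protein of the Con-6 family, held 9, 179, 215 and 797 reads, and 13 in the reference. Its level in the library labelled wild type, 0.973, was close to that in the reference, 0.949, and the other libraries stood well above both. The differences were 3.95 (3.00 to 5.10), 3.93 (2.97 to 5.07) and 5.89 (4.96 to 7.02). The gene pcm2, predicted to encode a methyltransferase that repairs damaged aspartyl residues of proteins, held 30, 140, 213 and 131 reads, and 4 in the reference. It lay 1.86 (1.28 to 2.48), 2.18 (1.62 to 2.78) and 1.55 (0.97 to 2.17) above the library labelled wild type, less than hry1 did. SPAC869.05c (5505583 to 5508782), a predicted sulfate transporter gene, held 135, 875, 922 and 1149 reads, and 566 in the reference. It differed by 2.34 (2.07 to 2.61), 2.12 (1.86 to 2.39) and 2.51 (2.25 to 2.78) from the library labelled wild type, but by only 0.84 (0.68 to 0.99), 0.62 (0.47 to 0.78) and 1.01 (0.87 to 1.16) from the reference. The library labelled wild type differed from the reference by -1.50 (-1.78 to -1.22).

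A second run of 5 neighbours lay on the left arm of chromosome II, eno102, SPBPB21E7.02c, SPBPB21E7.10, SPBPB21E7.11 and SPBPB21E7.04c, over 7.485 kb (58136 to 65620). It was at least 2-fold higher in every deletion-labelled library against both controls. The gene eno102 (58136 to 59704), which encodes an enolase, a glycolytic enzyme, held 738, 2291, 5313 and 5109 reads, and 49 in the reference. It was already well above the reference in the library labelled wild type, by 4.48 (4.07 to 4.93), and higher still by 1.27 (1.15 to 1.39), 2.20 (2.08 to 2.31) and 2.21 (2.10 to 2.32) in the others. Next to it, SPBPB21E7.02c, of the phosphoglycerate mutase family, held only 3, 37, 53 and 81 reads, and 1 in the reference. Its differences of 3.26 (1.60 to 5.60), 3.49 (1.87 to 5.81) and 4.18 (2.58 to 6.48) have wide intervals for that reason.

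The inner genes of that run had more reads. SPBPB21E7.04c (64487 to 65620), a catechol O-methyltransferase gene, held 574, 3299, 7865 and 2196 reads, and 73 in the reference, with differences of 2.16 (2.03 to 2.29), 3.12 (3.00 to 3.25) and 1.36 (1.22 to 1.49). The ssu72-labelled library was highest for it and for SPBPB21E7.11, of unknown function, which held 53, 425, 1164 and 492 reads and 21 in the reference. The differences of SPBPB21E7.11 were 2.64 (2.23 to 3.08), 3.81 (3.41 to 4.23) and 2.63 (2.22 to 3.07). SPBPB21E7.10 lies on the opposite strand, and its feature overlaps that of SPBPB21E7.11. It held 10, 50, 52 and 66 reads, and 1 in the reference, with differences of 1.96 (0.96 to 3.11), 1.73 (0.73 to 2.87) and 2.14 (1.17 to 3.27). The strand setting of the authors' counting was not given in the sources used here, so reads of this overlapping pair may not be fully separate.

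**Figure D4:**
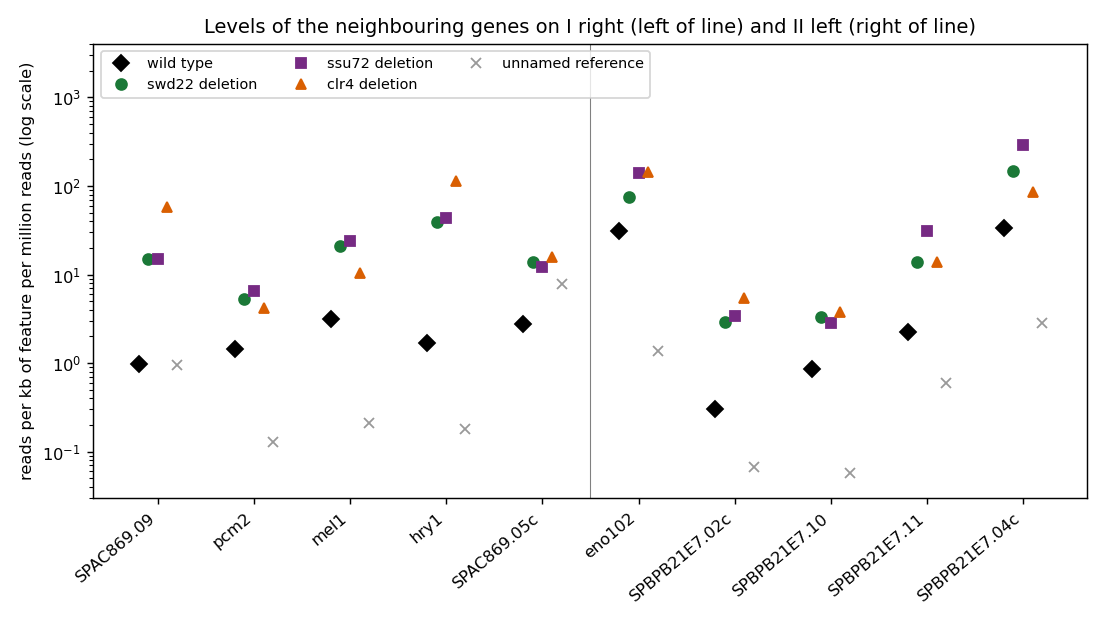
Points give the level (reads per kb of feature, scaled to 1000000 reads, log scale) of the 10 genes of both runs in the 4 labelled libraries and the unnamed reference. For every gene the 3 deletion-labelled points lie above the black wild-type-labelled point, and the grey reference point is the lowest except for SPAC869.05c, where it stands at 7.81 and the wild-type-labelled point at 2.76.

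Apart from these runs, aes1 had the most extreme difference in the swd22-labelled library. The gene (chromosome II, 70156 to 71310), described in the files as an enhancer of RNA-mediated gene silencing, held 370, 9976, 6413 and 2360 reads, and 1501 in the reference. Its levels were 21.0, 440, 231 and 89.5 in the labelled libraries and 57.4 in the reference. The order was swd22-labelled, then ssu72-labelled, then clr4-labelled, then wild-type-labelled, with differences of 4.39 (4.24 to 4.55), 3.46 (3.31 to 3.62) and 2.09 (1.93 to 2.26) from the last. Against the reference they were 2.94 (2.86 to 3.02), 2.01 (1.93 to 2.10) and 0.64 (0.55 to 0.74), so that the clr4-labelled library passed 2-fold only against the library labelled wild type.

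Members with an oxidoreductase product were mostly higher in the CPF-labelled libraries. Of 5, 3 were at least 2-fold higher in the swd22-labelled library, 3 in the ssu72-labelled and 1 in the clr4-labelled. Over all mRNA features the shares were 6.48%, 6.1% and 5.38%. Against the reference the counts were also 3, 3 and 1, with shares of 8.89%, 8.39% and 8.11%. The genes behind the swd22 count were not the same, as SPAC922.06 (1.01) dropped out at 0.21 and SPAC977.14c (0.78) came in at 1.01. The gene yhb1 (chromosome I, 5517865 to 5519950) encodes a nitric oxide dioxygenase, a flavohemoprotein that detoxifies nitric oxide, and held 5378, 16981, 30023 and 19583 reads, and 2706 in the reference. It was higher by 1.30 (1.25 to 1.34), 1.83 (1.79 to 1.87) and 1.28 (1.24 to 1.33), and the library labelled wild type lay 1.56 above the reference. The aldehyde dehydrogenase gene atd2 held 742, 2685, 2498 and 1259 reads, and 975 in the reference, with differences of 1.49 (1.38 to 1.61), 1.10 (0.98 to 1.22) and 0.18 (0.05 to 0.32). Both CPF-labelled libraries were thus high for atd2 while the clr4-labelled one stayed near that labelled wild type. SPAC977.14c, an aldo-keto reductase gene with 29.1% of its 50-base stretches repeated in the genome, held 6509, 14328, 21938 and 16194 reads, and 8243 in the reference. It passed 2-fold at 1.10 (1.06 to 1.14) in the ssu72-labelled library and lay at 0.78 and 0.74 in the swd22- and clr4-labelled ones, with 1.33, 1.01 and 0.96 against the reference in the same order.

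Genes of sugar metabolism included a neighbouring group on the right arm of chromosome II. The gene gal10 encodes the epimerase of galactose use and gal7 the uridylyltransferase of the same pathway. The gene gal10 held 145, 458, 703 and 713 reads, and 259 in the reference, with differences of 1.30 (1.03 to 1.58), 1.63 (1.37 to 1.89) and 1.72 (1.46 to 1.99). All 3 deletion-labelled libraries were above the library labelled wild type, which was close to the reference at -0.27. In contrast gal7 held 638, 932, 1316 and 1047 reads, and 397 in the reference, and differed from the library labelled wild type by only 0.19, 0.39 and 0.13. Against the reference, gal7, SPBPB2B2.11 and gal10 formed a run of 3 genes at least 2-fold higher in every deletion-labelled library, over 5.336 kb. SPBPB2B2.11, a predicted nucleotide-sugar dehydratase gene, overlaps both other features on the opposite strand, so its 242, 540, 974 and 548 reads, and 237 in the reference, may not be fully separate from theirs. It differed from the library labelled wild type by 0.80 (0.58 to 1.02), 1.36 (1.15 to 1.57) and 0.60 (0.38 to 0.82). The dihydroxyacetone kinase gene dak2, on the left arm of chromosome I, held 4027, 6500, 9883 and 21462 reads, and 1105 in the reference. It stood out in the clr4-labelled library, at 1.83 (1.79 to 1.88), and lay at 0.33 and 0.64 in the swd22- and ssu72-labelled ones. The feature of dak2 overlaps that of SPAC977.17 on the opposite strand, so reads of this pair may not be fully separate. SPAC977.17 was also highest in the clr4-labelled library, at 0.60 against -0.43 and -0.30 in the swd22- and ssu72-labelled ones.

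Transporter genes were the largest named class, with 14 members of which 11 were measured. Of these, 3 were higher in the swd22-labelled library, 3 in the ssu72-labelled and 1 in the clr4-labelled, where 1 was lower, or 27.3%, 27.3% and 9.09% higher against 6.48%, 6.1% and 5.38% of all mRNA features. Against the reference 2, 1 and 2 of 11 were higher and 0, 0 and 2 lower. Their medians from the library labelled wild type were 0.25, -0.24 and -0.58, below those of all members. The class was set by keywords and left out the predicted water channel gene SPAC977.17. The amino acid permease gene SPBPB2B2.01 held 99, 1099, 978 and 81 reads, and 544 in the reference. Both CPF-labelled libraries lay above that labelled wild type for it, at 3.11 (2.81 to 3.42) and 2.65 (2.35 to 2.97). The clr4-labelled one did not, at -0.87 (-1.31 to -0.43). Against the reference SPBPB2B2.01 lay at 1.22, 0.76 and -2.76, and the library labelled wild type at -1.89. The ssu72-labelled library thus passed 2-fold only against the library labelled wild type, and the clr4-labelled one was at least 2-fold lower only against the reference. The proline permease gene put4 (chromosome I, 5492902 to 5495156) held 491, 549, 618 and 246 reads, and 519 in the reference. Only the clr4-labelled library was low for put4, at -1.58 (-1.80 to -1.35) against the library labelled wild type and -1.09 against the reference. The cationic amino acid transporter gene cat1, with 2076, 4978, 5896 and 4620 reads and 4446 in the reference, was within 0.57 to 0.90 of the library labelled wild type. Thus cat1 differed little between the deletion-labelled libraries and the reference, at 0.37, 0.33 and 0.05.

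Of 8 genes with a hydrolase keyword in their product, 3 were at least 2-fold higher in the swd22-labelled library. In the ssu72- and clr4-labelled libraries 0 were, and 1 was lower in the clr4-labelled one. Over all mRNA features 6.48%, 6.1% and 5.38% were higher in the swd22-, ssu72- and clr4-labelled libraries. Against the reference 3 of 7, 3 of 7 and 3 of 8 were higher, and 2 were lower in each library. The higher shares over all mRNA features were 8.89%, 8.39% and 8.11% there. The contrast between libraries in higher counts thus did not hold against the reference. It holds for the keyword class only. The keywords missed the melibiase gene mel1 and the arylsulfatase gene SPBPB10D8.02c, both at least 2-fold higher in all 3 deletion-labelled libraries. SPAC1F8.04c, a predicted hydrolase gene, held 253, 764, 738 and 516 reads, and 70 in the reference, with a difference of 1.23 (1.03 to 1.44) in the swd22-labelled library and 0.89 and 0.45 in the others. SPBPB21E7.09, an L-asparaginase gene with 58.3% of its 50-base stretches repeated in the genome, held 284, 823, 869 and 531 reads, and 339 in the reference. It lay at 1.17 (0.98 to 1.37), 0.96 and 0.32, and at 1.49, 1.28 and 0.64 against the reference. For both genes the swd22- and ssu72-labelled libraries were close, on either side of 2-fold. SPBPB2B2.06c, which the files describe as a predicted 5'-nucleotidase, held 19, 51, 15 and 14 reads, and 179 in the reference. Its differences of 1.06 (0.28 to 1.91) in the swd22-labelled and -1.02 (-2.13 to 0.05) in the clr4-labelled library rest on few reads, and all 4 labelled libraries lay below the reference by 1.60 or more, with the swd22-labelled library at -1.60.

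Further members past 2-fold had other roles. The arylsulfatase gene SPBPB10D8.02c held 107, 1200, 700 and 1242 reads, and 332 in the reference, with differences of 3.13 (2.84 to 3.43), 2.06 (1.76 to 2.37) and 2.96 (2.67 to 3.26). Against the reference it lay at 2.06, 0.99 and 1.89, and the library labelled wild type at -1.06. The gene fub2, predicted to encode a regulator of the proteasome, held 40, 454, 119 and 123 reads, and 6 in the reference. Its difference was 3.14 (2.68 to 3.65) in the swd22-labelled library, and 0.92 (0.39 to 1.48) and 1.04 (0.52 to 1.59) in the ssu72- and clr4-labelled ones, whose intervals span 2-fold. SPBPB2B2.05, of the glutamine amidotransferase family, held 9, 68, 32 and 18 reads, and 158 in the reference. It was 2.56 (1.55 to 3.75) above the library labelled wild type in the swd22-labelled library and 1.18 (0.08 to 2.43) above it in the ssu72-labelled one, yet below the reference in both, at -1.01 and -2.39.

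Past 2-fold there were also SPBC8E4.02c, isp3, SPAC922.06, SPAC922.09, SPAPJ695.01c and SPBPB2B2.08. SPBC8E4.02c, of unknown function and not matched in RefSeq, held 1086, 3786, 4160 and 2080 reads, and 769 in the reference, with differences of 1.44 (1.34 to 1.54), 1.29 (1.19 to 1.38) and 0.36 (0.25 to 0.46). Its feature overlaps that of the phosphate transporter gene pho84, whose differences were -1.70 and -1.69 in the swd22- and ssu72-labelled libraries. The gene isp3 held 147, 526, 444 and 414 reads, and 461 in the reference, and passed 2-fold at 1.48 (1.21 to 1.75) in the swd22-labelled library, with 0.94 and 0.91 in the others. Against the reference isp3 lay at 0.40, -0.14 and -0.16, the library labelled wild type being the low one. SPAC922.06, a predicted reductase gene, passed narrowly, at 1.01 (0.79 to 1.24), in the swd22-labelled library. From the reference that library differed by only 0.21, and the library labelled wild type by -0.81. The feature of SPAC922.06 lies within that of SPAC922.05c on the opposite strand, so reads of this pair may not be fully separate. SPAC922.09, SPAPJ695.01c and SPBPB2B2.08 passed on 3 to 35 reads in the labelled libraries. SPAC922.09 lay at 2.05 (0.25 to 4.47) in the swd22-labelled and 1.54 (-0.33 to 3.99) in the clr4-labelled library. In the clr4-labelled library SPAPJ695.01c lay at 1.74 (0.33 to 3.48) and SPBPB2B2.08 at 1.09 (0.08 to 2.22), so all these intervals reach below 2-fold.

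Only ecl3 among the measured members was at least 2-fold lower in the swd22- and in the ssu72-labelled library. The gene ecl3 (chromosome II, 4441340 to 4441609), named for extending chronological lifespan, held 678, 408, 265 and 1133 reads, and 279 in the reference. Its differences were -1.09 (-1.27 to -0.91) in the swd22-labelled and -2.01 (-2.22 to -1.80) in the ssu72-labelled library, and the clr4-labelled one lay close to that labelled wild type, at 0.16 (0.02 to 0.30). Against the reference, however, the swd22-labelled library was higher, at 0.76, and the ssu72-labelled one lay at -0.16, while the libraries labelled wild type and clr4 deletion lay above the reference by 1.85 and 2.01.

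Of the 50 members with at least 10 reads in a labelled library, 17 stayed under 2-fold of the library labelled wild type in every deletion-labelled library. They include the sodium-proton antiporter gene nhe1, with 1702, 1662, 2201 and 1605 reads, the fluoride channel genes fex1 and fex2, the asparaginase genes SPAC977.12 and SPBPB8B6.05c, gal7, pan5 of pantothenate synthesis, cat1, SPBPB10D8.01, SPAC922.05c, SPAC977.15, SPAC977.17, SPAPJ695.02 and SPAC922.04. SPAC922.04 had the highest level of all members, with a median over the labelled libraries of 872, above 98.5% of mRNA features, and 11190, 7917, 12802 and 13038 reads. For it the swd22-labelled library was the lowest of the 4, at -0.86 (-0.90 to -0.82) from that labelled wild type. The next by level were SPAC977.14c at 556, yhb1 at 413, aes1 at 160 and dak2 at 153. They were followed by ecl3 at 121, SPBPB21E7.04c at 117, eno102 at 108, cat1 at 84.3 and SPBC8E4.02c at 81.7. SPAC869.01, SPAC869.03c and SPAC869.04, an amidase, a urea transporter and a formamidase-like gene that lie beside yhb1, held 7 to 24 reads in each labelled library and 4 to 9 in the reference. All their intervals from the library labelled wild type included 0, while the clr4-labelled library lay at 1.99 (0.66 to 3.57), 1.58 (-0.15 to 3.66) and 1.34 (0.18 to 2.64) from the reference.

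The other 5 members had fewer than 10 reads in each labelled library. SPBPB21E7.05 held 7, 1, 3 and 0 reads and 1 in the reference, and SPBPB2B2.07c held 7 in the clr4-labelled library and at most 4 in the others. SPBPB10D8.05c, SPBPB10D8.06c and SPBPB10D8.07c have deposited ratios of 0 throughout, so that no library can hold over 4 reads of them. These 3 transporter genes are copies of SPBPB10D8.04c: the coding sequences of all 4 were identical over 1140 of 1140 bases, and every 50-base stretch of the 3 genes occurs elsewhere in the genome. SPBPB10D8.04c, with 81.9% of its stretches repeated, held 34, 112, 194 and 101 reads, and 93 in the reference, with differences of 1.36 (0.79 to 1.96), 1.86 (1.33 to 2.43) and 0.99 (0.42 to 1.60). Against the reference it stayed under 2-fold, at 0.48, 0.98 and 0.11, and the library labelled wild type lay at -0.88. The authors' handling of reads that match several places was not given in the sources used here, so those reads cannot be assigned to 1 copy. The first 60 coding bases, which all 4 genes share, are shown as an example of such a stretch, at the position of SPBPB10D8.04c (RefSeq, ASM294v3, chrII:92804-92863, minus strand).
SPBPB10D8.04c: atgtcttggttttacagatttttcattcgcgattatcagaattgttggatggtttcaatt

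Other near copies lie in pairs on 2 arms. The coding sequences of fex1 and fex2 were 99.89% identical, and those of SPAC977.12 and SPBPB8B6.05c 98.79%. Neither pair passed 2-fold from the library labelled wild type: fex1 lay at -0.61, -0.66 and -0.90 and fex2 at -0.87, -0.80 and -0.86 in the 3 deletion-labelled libraries, and the asparaginase pair between -0.76 and -0.06. From the reference SPBPB8B6.05c was at least 2-fold lower, at -1.33, -1.11 and -1.03, and SPAC977.12 lay at -0.97, -0.80 and -0.72. Of the 54 matched members, 11 had at least 10% of their 50-base stretches repeated in the genome, against 2.72% of all matched mRNA features.

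Upstream windows of the members were searched on both strands for 5 short motifs. The windows were placed from RefSeq gene starts, and some mRNA features of the files begin further upstream. Thus the windows of nhe1, SPBPB21E7.09, put4 and SPAPJ695.02, which hold GATAAG, lie inside the features of these genes. Such windows were counted with the others. GATAAG, letters recognised by GATA-type factors, occurred in the window of 17 of 54 members, or 31.5%, at 19 distinct positions, against 8.27% of 5112 genes. Genes within 50 kb held it in 8.47% of windows and those 100 to 150 kb inside in 20%. The other motifs were TATAAA (42.6% of members and 37.9% of all genes), TGACGT (3.7% and 4.11%), CCCCT (5.56% and 5.95%) and CAGTCACA (0% and 0.9%), and none of the 5 contains another. Members with GATAAG had median differences of 1.17, 0.78 and 0.41 in the swd22-, ssu72- and clr4-labelled libraries, near those of all members. In the swd22-labelled library 9 of 17 of them, or 52.9%, were at least 2-fold higher. Of measured members without a found GATAAG it was 17 of 32, or 53.1%, and of all mRNA features 6.48%. The windows of SPBPB21E7.02c and SPBPB21E7.10 overlap, so a site can count for both genes. The window of SPAC977.12 is identical to that of SPBPB8B6.05c, and a match describes letters only, not binding.

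The genes of known factors of subtelomeric and heterochromatin chromatin were mostly under 2-fold, as were mRNA features in general. A list of 32 such genes, among them sgo2, set2, clr4 and its partners, histone deacetylases, shelterin and inner nuclear membrane genes, was measured in full in each comparison. Of these 32, swi6 alone was at least 2-fold from the library labelled wild type. It lay at 3.82, 3.57 and 3.59 in the swd22-, ssu72- and clr4-labelled libraries. Between those libraries and the reference 0 of 32 passed 2-fold. Over all mRNA features 6.48%, 6.1% and 5.38% were higher and 1.72%, 2.87% and 1.23% lower than in the library labelled wild type. From the reference the shares were 8.89%, 8.39% and 8.11% higher and 2.34%, 2.4% and 1.74% lower. At such shares few of any 32 genes would pass. The list medians were -0.07, -0.03 and -0.09 against the library labelled wild type.

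At the limits of the region the genes just inside and outside were as follows. At the 50 kb limit, gal10 (52.2 kb from the end) lay inside and gal1 (49.5 kb), the galactokinase gene, outside, where its differences were -0.38, -0.45 and -0.09. On the other arms nhe1 lay inside the outer limit and SPAC977.09c, with at most 4 reads, outside, SPAC869.01 inside and SPAC186.02c outside, at 0.69, 1.58 and 1.87 on 13 to 71 reads, and SPBPB8B6.05c inside and grt1 outside, at -1.61, -2.44 and -1.44. At the 100 kb limit, isp3 lay inside and pdc101 outside, at -0.09, 0.12 and -0.01, SPAC922.04 inside and SPAC922.03 outside, at 0.49, 0.25 and 0.13, SPBPB10D8.07c inside and SPBC359.01 outside, at 0.05, -0.69 and 0.03, and ecl3 inside and SPBC8E4.03 outside, at 1.62, 2.29 and 0.84. Thus a gene beyond the inner limit on the right arm of II was as high as many members.

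The window also held 31 features of type transcript and 11 antisense features. Of the transcripts, 13 were measured in the swd22-labelled library against that labelled wild type, with 4 higher and 1 lower and a median of 0.35. The background over all transcript features was 28.8% higher and 11.9% lower, around a median of 0.47. All 11 antisense features were measured, with 2 higher and 1 lower and a median of 0.12. For all antisense features it was 15.5% higher and 1.81% lower, around a median of 0.26. The ssu72-labelled library had medians of 0.41 for the transcripts of the window and 0.45 for all transcripts, and of -0.19 and 0.42 for antisense features. In the clr4-labelled library the medians were 0.68 for the transcripts of the window and 0.58 for all transcripts, and 0.30 and 0.27 for antisense features. From the reference the swd22-labelled library had medians, in the window and over all, of 0.52 and 0.18 for transcripts and 1.51 and 0.20 for antisense features. The library labelled wild type itself had -0.17 and -0.39 for transcripts and 1.11 and -0.09 for antisense features. For transcripts the ssu72-labelled library had 0.42 and 0.28 and the clr4-labelled one 0.63 and 0.24. For antisense features these libraries had 0.70 and 0.35, and 0.68 and 0.11. The antisense median of the window thus lay above the reference in all 4 labelled libraries.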

How the data were processed

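Per the labels' protocols, a yeast kit was used for total RNA, the strand-keeping ScriptSeq v2 kit for the libraries and an Illumina NextSeq for sequencing. Trimmomatic and STAR are named without versions in the submitters' processing notes. How strand was treated in counting, which genome build was used and what made the ratios is not given in the sources used here. Log2 ratios and their p-values were deposited for every feature, per the file headers. The authors' log2 values are ratios to a shared library that is not named, and the deposited p-values carry no spread between cultures and were used only to recover reads, never as tests.

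Ratio and p-value together fix whole read numbers under a random sampling model. Counts of 6560 of 7015 features came from both and those of 93 from ratios alone, while 362 had ratios of 0 throughout, so that no library can hold over 4 reads of them. Among low-count features, 100% of estimates lay within 0.05 of a whole number. Of the members, 50 were solved from both values, 2 (dak2 and yhb1) from ratios alone, where the smallest fitting whole numbers were used, and 3 had a ratio of 0 throughout. The recovery was tested on simulated data for the swd22 deletion against wild type, where 99.86% of 33021 counts were exact. That simulation used the same model, so it does not show that the authors' values follow the model.

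A count of 0 entered as 0.5. Differences keep the scale of the deposited ratios. The design had allowed for levels or counts, and the ratio form was met in its place. With 1 library per genotype no test was run. Upstream windows, repeated stretches of 50 bases and coding identity were taken from RefSeq ASM294v3 with Python 3.11.15, numpy 2.4.6 and pandas 2.3.3, intervals with scipy 1.17.1 and plots with matplotlib 3.10.9. Classes were set by keywords of the RefSeq product text. All members may be named with their reads, and intervals are given for members at least 2-fold from the library labelled wild type. The members and lists were chosen with earlier results of these data known. Intervals cover counting error alone, since without molecular identifiers several reads can stem from 1 molecule.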

Additional observations from a re-analysis of the deposited data

How the results depend on the processing

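No paired analysis was possible because each genotype had 1 library and no test was run. Leaving out a replicate was not possible for the same reason. Counts of members at least 2-fold higher, 26, 21 and 19 for swd22, ssu72 and clr4, stayed within 1.5 times under all alternatives run, with 20, 18 and 14 where the whole interval had to pass 2-fold. With the unnamed reference as control the medians for ssu72 and clr4 moved from 0.91 to 1.28 and from 0.61 to 1.25, and members at least 2-fold lower numbered 3, 3 and 6 in place of 1, 1 and 2. Without a read minimum the lower counts were 2 for swd22 and 2 for ssu72. With the genes left out by name kept they were 4, 5 and 4, of which pho1, pho84 and pfl genes are part. With the whole interval past 2-fold they were 0 for swd22 and 1 for clr4. For clr4 the count was also 1 after centring on the median of all mRNA features and 1 with at least 50 reads. Among differences at least 2-fold from the library labelled wild type, directions turned against the reference for ecl3 in swd22 (0.76), SPBPB2B2.05 in swd22 (-1.01) and ssu72 (-2.39), and SPBPB2B2.06c in swd22 (-1.60). Smaller differences changed sign too, among them isp3 in ssu72 (0.94 to -0.14), SPAC922.06 in ssu72 (0.47 to -0.34) and put4 in swd22 (-0.20 to 0.29). Over 96 differences of named genes, 80 moved beyond their interval under that control, some of these smaller sign changes included. A further 4 turned from at least 2-fold, as listed, and 12 did neither. All 96 stayed within their interval under both scalings. Chosen after seeing the data were a pair of alternatives: without members that overlap another mRNA feature 20, 15 and 14 were higher, and without members with repeated stretches 24, 19 and 19. Depth limits the low genes: 5 members had fewer than 10 reads in every labelled library.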
